A study of Mus musculus with 228 samples.

Results

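Interferon-induced effector genes are the genes whose products act against a virus once a cell has received interferon. They were followed here in single neurons of the mouse hippocampus that had received an adeno-associated virus (AAV) for the transcription factor Ascl4. The set was a list of 38 symbols, chosen by function and with earlier results of these data known. Of these, 37 were found among the 22870 gene rows of the count table. Mx2 was not analysed here. Genes for interferon signalling, nucleic acid sensing and antigen presentation were kept out of the set and are given separately at the end.

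RNA of single cells was drawn into a patch pipette from acute slices of ventral hippocampus and sequenced. Granule cells (GC) of the dentate gyrus came from Calb1-Cre mice, and pyramidal neurons of medial CA1 (CA1) came from Nex-Cre mice. Mice aged 3 to 4 months were used, 1 month after injection into the hippocampus. EGFP cells had received a Cre-dependent AAV for the fluorescent protein EGFP alone, and Ascl4 cells had received that virus plus an AAV for Ascl4. All groups therefore carried Cre and an AAV, and no group carried a second AAV without Ascl4, so Ascl4 and a second virus cannot be told apart. Cell type and Cre line cannot be told apart either. The table held 47 EGFP and 51 Ascl4 granule cells and 46 EGFP and 45 Ascl4 CA1 cells, with 1077532 to 25442664 reads on genes per cell. The labels name no animal. Each group was therefore treated as a single sample without replicates, no p-value was computed, and all differences below are descriptions of these cells. Where 4 values follow each other without a name, they stand for EGFP and then Ascl4 granule cells, followed by EGFP and then Ascl4 CA1 cells.

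The virus and the cell types were read from the same cells. Levels are given in CPM, the reads of a gene for each 1000000 reads on genes. Ascl4 itself had medians over cells of 24.2 CPM (EGFP) and 11178 CPM (Ascl4) in GC, and of 16.1 and 6716 CPM in CA1. Prox1, a granule cell transcription factor, was at 175.3 and 156.2 CPM in the summed reads of EGFP and Ascl4 GC and at 0.24 and 7.78 CPM in those of EGFP and Ascl4 CA1. Neurod6, a transcription factor of pyramidal neurons, was at 319 and 94.2 CPM in EGFP and Ascl4 CA1 and at 0.11 and 1.23 CPM in EGFP and Ascl4 GC. The factor of the other cell type was the higher one in 3 EGFP and 3 Ascl4 granule cells, and in 1 EGFP and 5 Ascl4 CA1 cells, and neither factor was found in a further 3 granule cells (all Ascl4) and 4 CA1 cells (1 EGFP, 3 Ascl4). Without these cells the counts of members given below were 27 in place of 29 in GC and stayed at 28 in CA1.

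Type I interferon binds a receptor made of Ifnar1 and Ifnar2, which activates the kinases Jak1 and Tyk2. The kinases activate a transcription factor complex that includes Irf9 and binds a DNA element in the promoters of target genes, the interferon-stimulated response element (ISRE). Type II interferon acts through another element, the gamma-activated site (GAS). The targets include proteins that hold back foreign RNA, degrade it, block viral entry and exit, or attack the vacuoles of intracellular parasites, and in brain both neurons and microglia are known to respond to interferon.

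The ISRE core was searched as GAAANNGAAA, which reads TTTCNNTTTC on the other strand, and the GAS as TTCNNNGAA, which reads the same on both strands. Both strands were searched from 250 bases before to 50 bases after each start site of the RefSeq promoter table (GRCm38.p6). Of the 37 members, 27 had a promoter in the table. The ISRE core was present in 14 of these 27 (51.9%), against 1079 of all 27025 genes of the table (3.99%). The GAS letters were present in 7 of 27 (25.9%), against 9.55% of all genes. These letters are a description of the promoters, and no binding was measured. Oasl2, Xaf1 and Lgals3bp, which are described below, had a promoter in the table without the ISRE core. Ifi27l2a and Rtp4 had no promoter there. The matches of Gbp3, Ifitm3, Igtp, Oas1a, Oas3 and Trim30a are not shown. The following stretches are the ISRE matches of the other members with the core. They are given with 8 bases on each side, written on the strand of the gene and with the matches in capitals.

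Ifit1 (chr19:34640777-34640821, plus strand): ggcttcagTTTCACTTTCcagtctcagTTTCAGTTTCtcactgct
Ifit3 (chr19:34583365-34583424, plus strand): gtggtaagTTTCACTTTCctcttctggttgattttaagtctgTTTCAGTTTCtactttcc
Isg15 (chr4:156200867-156200904, minus strand): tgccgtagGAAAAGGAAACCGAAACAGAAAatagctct
Bst2 (chr8:71537579-71537610, minus strand): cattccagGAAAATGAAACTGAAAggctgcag
Irgm1 (chr11:48871427-48871458, minus strand): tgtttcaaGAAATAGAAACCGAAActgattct
Gbp7 (chr3:142530275-142530300, plus strand): gtgtgcagTTTCAGTTTCagttctcc
Gbp2 (chr3:142620596-142620621, plus strand): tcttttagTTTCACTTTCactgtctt
Rsad2 (chr12:26456555-26456580, minus strand): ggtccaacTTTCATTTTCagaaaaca

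In Ifit1 and Ifit3 a pair of separate cores lies on the strand opposite to the gene. In Isg15 the cores overlap in a run of 3, and in Bst2 and Irgm1 in a run of 2. The match farthest upstream begins within 100 bases of the start site in Isg15 (78 bases before it), Irgm1 (30), Gbp7 (53) and Gbp2 (59), and farther upstream in Ifit1, Ifit3, Bst2 and Rsad2.

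For each group, the reads of all its cells were summed and scaled to CPM, and the log2 ratio between groups was taken after adding 1 CPM. A member was counted as higher or lower when this ratio reached a factor of 2. In such sums, more cells holding a gene and more of its RNA per cell cannot be told apart, so the number of cells with at least 10 CPM of a member stands beside each sum.

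Most members were higher in the Ascl4 cells, in granule cells and in CA1 alike. In GC, 29 of 37 members were at least 2-fold higher and 0 were at least 2-fold lower, where 15.1% of the 19884 genes with a read were higher and 14.7% lower. In CA1, 28 members were higher and 2 were lower, where 14.2% of 20874 genes were higher and 11.7% lower. Since the list was chosen with earlier results of these data known, these counts and shares are a description and no test. The median log2 ratio of the members was 2.18 in GC and 3.43 in CA1, against 0.02 and 0.03 over all genes with a read. All members together took 128.9 CPM of the EGFP and 985.8 CPM of the Ascl4 reads in GC, and 181.7 and 997.8 CPM in CA1.

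The cells carry title numbers in 2 separate runs, and fewer members were higher in the first run than in the second. In the first run (15 EGFP and 33 Ascl4 GC, 15 EGFP and 17 Ascl4 CA1 cells), 18 members were higher in GC and 19 in CA1, with medians of 0.67 and 1.03, where 27.3% and 23.4% of all genes were higher. In the second run (32 EGFP and 18 Ascl4 GC, 31 EGFP and 28 Ascl4 CA1 cells), 27 members were higher in each cell type, with medians of 2.28 and 3.55, where 17.03% and 16.4% of all genes were higher. Single members went either way. In GC the log2 ratio was larger in the first run for Ifit1, Ifit3, Isg15, Xaf1, Lgals3bp and Ifi27l2a (6.49 and 2.21), among others. It was smaller there for others, such as Gbp3 (0.04 and 3.32). The summed members had medians of 710 and 564 CPM over the Ascl4 GC cells of the 2 runs, and of 507 and 693 CPM over the Ascl4 CA1 cells. The labels do not say what the runs of numbers stand for.

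Because 1 deep cell can set a sum, the share of cells at 10 CPM or more was read as well. In GC the share was at least 10 percentage points higher with Ascl4 for 13 members, where 6.47% of all genes met that mark. In CA1 it was at least 10 points higher for 13 members, where 8.85% of all genes met it. Of these, 10 members were on both lists (76.9% of each): Ifit1, Ifit3, Oasl2, Isg15, Ifitm3, Bst2, Ifi27l2a, Xaf1, Rtp4 and Lgals3bp. In all, 18 members reached 10 CPM in no EGFP cell of either type and in at least 1 Ascl4 cell, and Oas3 reached it in no cell. No share over all genes stands beside this number or the overlap of the lists.

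**Figure D1:**
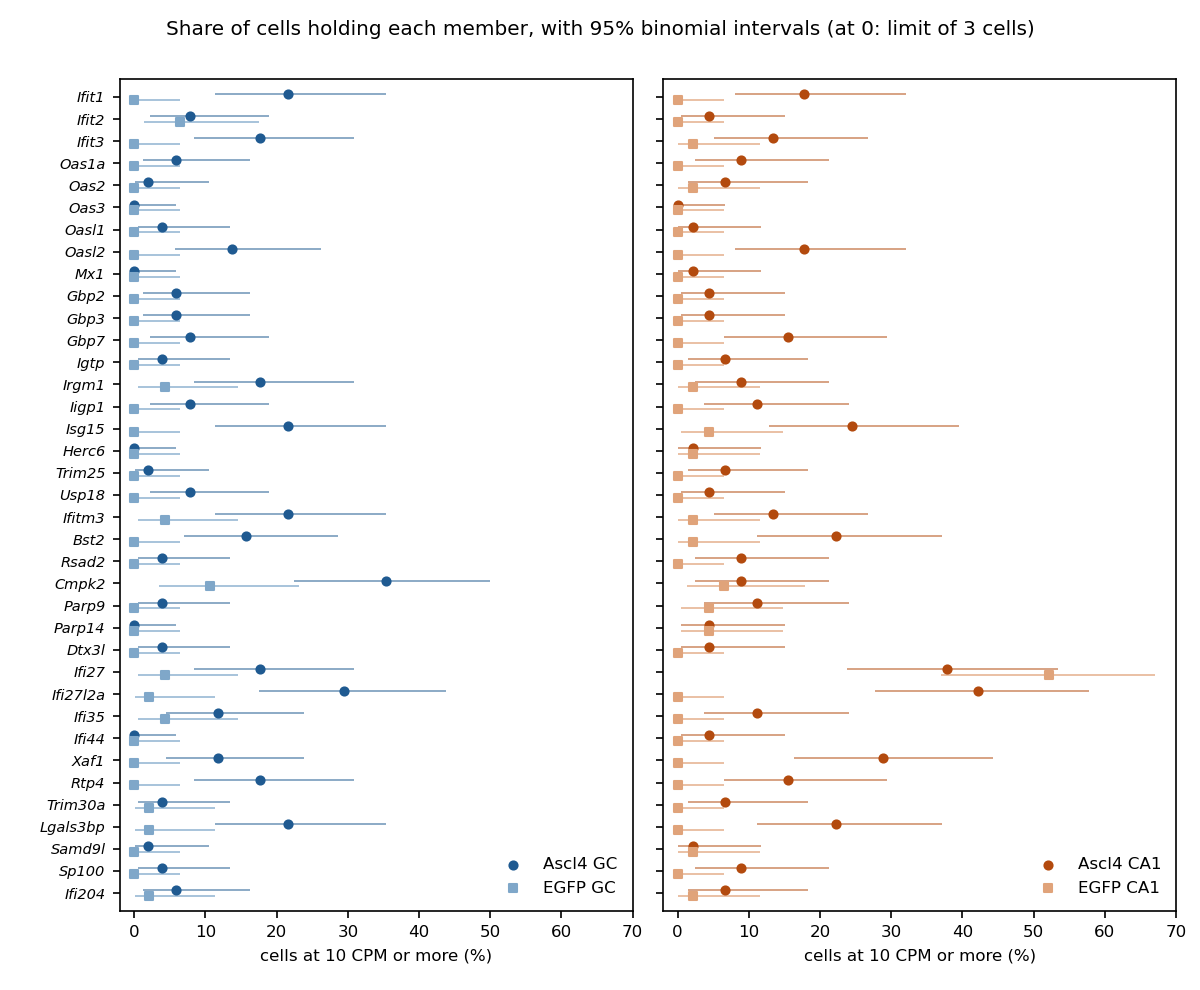
Percent of cells with at least 10 CPM of each member, in GC (left) and CA1 (right), for Ascl4 cells (circles) and EGFP cells (squares). Lines are exact 95% binomial intervals, which cover counting error only, and at a share of 0 they end at the limit of 3 cells; Ifi27 in CA1 is the member with a higher share in EGFP than in Ascl4 cells.

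The IFIT proteins bind foreign RNA and keep it from being translated. Ifit1 was at 10 CPM or more in 11 of 51 Ascl4 granule cells and 8 of 45 Ascl4 CA1 cells, but in 0 of 47 and 0 of 46 EGFP cells. Its highest cells held 2.78, 3098, 0.41 and 645 CPM, and the cell medians were 0, 0.73, 0 and 0 CPM. The groups overlapped, since most Ascl4 cells held as little Ifit1 as the EGFP cells, but the upper cells of both Ascl4 groups lay far above every EGFP cell. In the sums Ifit1 went from 0.41 to 163.7 CPM in GC (log2 ratio 6.87) and from 0.02 to 45.5 CPM in CA1 (5.50). Its log2 ratio was 7.59 and 4.61 in the runs of GC numbers and 4.35 and 6.03 in those of CA1.

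Ifit3, another protein of this family, reached 10 CPM in 0, 9, 1 and 6 cells. The highest cells held 2.21, 3065, 50.6 and 2945 CPM, and the median cell of every group held 0. Summed Ifit3 was 0.16 and 144.2 CPM in EGFP and Ascl4 GC (log2 ratio 6.96) and 0.87 and 86.7 CPM in EGFP and Ascl4 CA1 (5.55). Ifit2, their relative in the same cluster on chromosome 19, was carried by few cells. It reached 10 CPM in 3 EGFP GC and 4 Ascl4 GC cells, 84.8% of its reads in Ascl4 GC came from 1 cell, and its log2 ratio of 1.66 in GC was 0.06 in the mean over cells when the highest cell of each group was left out.

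Oligoadenylate synthetases make the second messenger that switches on RNase L, which cuts RNA. In this family 3 of 5 members were higher in GC and 4 of 5 in CA1. Oasl2, a relative that also carries ubiquitin-like domains, reached 10 CPM in 7 Ascl4 GC and 8 Ascl4 CA1 cells and in no EGFP cell. Its highest cells held 1.11, 386, 1.07 and 895 CPM. Summed Oasl2 was 0.04 and 22.4 CPM in GC (log2 ratio 4.49) and 0.04 and 57.8 CPM in CA1 (5.81). Oas1a was at 10 CPM in 3 Ascl4 GC and 4 Ascl4 CA1 cells, with log2 ratios of 2.18 and 4.47. Oas2 and Oas3 gave log2 ratios of 0.50 and 0.01 in GC and 1.83 and 0.18 in CA1, and Oasl1 gave 2.60 and 3.59, with 99.4% of its Ascl4 CA1 reads in 1 cell.

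Mx1, a dynamin-like GTPase that traps viral nucleocapsids, stayed close to 0. It had no read in EGFP GC, 13 reads in Ascl4 GC and 2 reads in EGFP CA1, and in Ascl4 CA1 it summed to 0.55 CPM, of which 90.7% came from 1 cell. Its log2 ratios were 0.06 and 0.62.

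Guanylate-binding proteins (Gbp2, Gbp3, Gbp7) and immunity-related GTPases (Igtp, Irgm1, Iigp1) take part in the defence against parasites held in vacuoles. In this family 5 of 6 members were higher in GC and 6 of 6 in CA1. Irgm1 reached 10 CPM in 2 EGFP and 9 Ascl4 granule cells, and in 1 EGFP and 4 Ascl4 CA1 cells. Its highest cells held 1850.5, 740.5, 136.4 and 316 CPM. A single EGFP GC cell held 98.5% of the group's Irgm1 reads, and the log2 ratio of 0.86 in GC was 4.84 without the highest cell of each group and −0.76 from the authors' normalized values. In CA1 the log2 ratio of Irgm1 was 2.83.

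Gbp7 was at 10 CPM in 4 Ascl4 GC and 7 Ascl4 CA1 cells and in no EGFP cell, with highest cells of 0.33, 111.7, 8.64 and 678 CPM. Its log2 ratios were 2.94 in GC and 4.70 in CA1. Iigp1 was at 10 CPM in 4 Ascl4 GC and 5 Ascl4 CA1 cells, again in no EGFP cell, with log2 ratios of 3.66 and 4.96. Gbp2 and Gbp3 had no read in any EGFP cell. Against a floor of 3 reads over the group, Gbp2 was at least 199.3-fold higher in Ascl4 GC and at least 511-fold higher in Ascl4 CA1, and Gbp3 at least 293-fold and at least 226.1-fold higher. Each was at 10 CPM in 3 Ascl4 GC and 2 Ascl4 CA1 cells only. A single cell held 65.4% and 74.6% of the Gbp2 reads in these groups, and 49.7% and 66.2% of the Gbp3 reads. Igtp gave log2 ratios of 1.09 and 6.19, and in Ascl4 CA1 1 cell held 63.6% of its reads.

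Isg15 is a ubiquitin-like protein that is attached to other proteins during an interferon response. It reached 10 CPM in 0 EGFP and 11 Ascl4 granule cells, and in 2 EGFP and 11 Ascl4 CA1 cells, and the highest cells held 0.93, 208.9, 128.02 and 140.5 CPM. The EGFP CA1 cell at 128.02 CPM lay within the range of the Ascl4 CA1 cells, so these groups overlapped also at their upper ends. Summed Isg15 was 0.03 and 14.96 CPM in GC (log2 ratio 3.95) and 1.91 and 15.7 CPM in CA1 (2.52). Usp18, the protease that removes Isg15 and dampens the receptor, was at 10 CPM in 4 Ascl4 GC and 2 Ascl4 CA1 cells and in no EGFP cell, with log2 ratios of 5.11 and 1.96, and 1 cell held 86.2% of its Ascl4 CA1 reads. Trim25, a ubiquitin ligase, gave 1.10 and 4.34, and 1 cell held 89.1% of its reads in Ascl4 GC and 87.4% in Ascl4 CA1. Herc6, the ligase for Isg15 in mice, was 1 of the 2 members that were lower in CA1, with a log2 ratio of −1.46. All 729 of its EGFP CA1 reads came from 1 cell at 174.1 CPM, and without the highest cell of each group the ratio was 0.20. Its ratio in GC was 0.11.

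Ifitm3 sits in endosomal membranes and blocks the entry of viruses, and Bst2 (tetherin) holds budding viruses at the cell surface. Ifitm3 reached 10 CPM in 2 EGFP and 11 Ascl4 granule cells, and in 1 EGFP and 6 Ascl4 CA1 cells, with highest cells of 155.9, 400.2, 140.7 and 150.8 CPM. Its log2 ratios were 2.65 and 1.80, and 3.74 and 3.39 without the highest cell of each group. Bst2 reached 10 CPM in 0, 8, 1 and 10 cells, with highest cells of 0.45, 207.2, 90.5 and 207.1 CPM. The log2 ratios of Bst2 were 4.06 in GC and 3.43 in CA1. The few EGFP cells at 10 CPM of either gene (none for Bst2 in GC) lay within the range of the Ascl4 cells of the same type.

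Rsad2 (viperin) makes a chain-terminating nucleotide, and Cmpk2 is a mitochondrial nucleotide kinase encoded beside it. Rsad2 had no read in EGFP GC and was at 10 CPM in 2 Ascl4 GC and 4 Ascl4 CA1 cells, with log2 ratios of 1.46 and 3.48. Against the floor of 3 reads it was at least 125.9-fold higher in Ascl4 GC. Cmpk2 was held by control cells as well. It reached 10 CPM in 5 EGFP and 18 Ascl4 granule cells, and in 3 EGFP and 4 Ascl4 CA1 cells, and the highest cells held 1018, 2249, 718 and 374 CPM. The share of cells was 10.6% (exact 95% interval 3.55 to 23.1) in EGFP GC and 35.3% (22.4 to 49.9) in Ascl4 GC. Its summed level was 55.9 and 87.3 CPM in GC (log2 ratio 0.63) and 37.7 and 16.1 CPM in CA1 (−1.18), and the CA1 ratio was −0.01 without the highest cell of each group.

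Parp9 and Dtx3l form a pair that modifies histones and viral proteins, and Parp14 is a related enzyme. Parp9 reached 10 CPM in 0 EGFP and 2 Ascl4 granule cells, and in 2 EGFP and 5 Ascl4 CA1 cells, with log2 ratios of 1.38 and 0.98. Dtx3l gave 3.12 and 3.63, and 95.04% of its Ascl4 GC reads came from 1 cell. Parp9 and Dtx3l overlap on opposite strands, and strandedness of the counting is not given in the sources used here, so their reads cannot be parted with certainty. Parp14 gave 0.15 and −0.41.

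Among the small interferon-induced proteins, Ifi27l2a was the member held by most Ascl4 cells of CA1. It encodes a short hydrophobic membrane protein. It reached 10 CPM in 1 of 47 EGFP GC cells (2.13%, exact 95% interval 0.05 to 11.3) and 15 of 51 Ascl4 GC cells (29.4%, 17.5 to 43.8). In CA1 it reached 10 CPM in 0 of 46 EGFP cells, which allows a share of up to 6.52%, and in 19 of 45 Ascl4 cells (42.2%, 27.7 to 57.8). The highest cells held 161.9, 649.5, 0.54 and 603.5 CPM, and the cell medians were 0, 0.46, 0 and 0.30 CPM. Summed Ifi27l2a was 3.32 and 64.6 CPM in GC (log2 ratio 3.92) and 0.02 and 66.7 CPM in CA1 (6.05).

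Xaf1, a promoter of cell death that binds the inhibitor Xiap, reached 10 CPM in 6 Ascl4 GC and 13 Ascl4 CA1 cells and in no EGFP cell. Its highest cells held 0.98, 1694, 1.96 and 426 CPM, and its log2 ratios were 5.89 and 5.73. In Ascl4 GC 1 cell held 85.9% of its reads, and the ratio there was 3.60 without the highest cell of each group. Ifi35 was at 10 CPM in 2, 6, 0 and 5 cells, with log2 ratios of 1.90 and 3.92, and Ifi44 gave 0.01 and 0.67.

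Ifi27, another short membrane protein of that family, differed from the other members in the control cells. It reached 10 CPM in 2 EGFP and 9 Ascl4 granule cells, and in 24 EGFP and 17 Ascl4 CA1 cells. The lowest, median and highest cells held 0, 59.1 and 1098 CPM in EGFP CA1 and 0, 1.04 and 604 CPM in Ascl4 CA1, whereas the medians of both GC groups were 0 CPM. Summed Ifi27 was 7.20 and 30.6 CPM in GC (log2 ratio 1.95, but −1.51 when the cells that failed the authors' quality control are included) and 121.3 and 87.2 CPM in CA1 (−0.47). Ifi27 was the single member whose share of cells was more than 10 points lower in Ascl4 than in EGFP CA1 cells, 37.8% (23.8 to 53.5) against 52.2% (36.9 to 67.1), and these intervals overlap.

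Of the remaining effectors, Rtp4 is a chaperone of receptor proteins that also restrains interferon signalling, and Lgals3bp is a secreted glycoprotein that binds galectins. Rtp4 reached 10 CPM in 9 Ascl4 GC and 7 Ascl4 CA1 cells and in no EGFP cell, with highest cells of 0.82, 619, 4.37 and 866 CPM and log2 ratios of 5.80 and 4.81. Lgals3bp reached 10 CPM in 1, 11, 0 and 10 cells, with highest cells of 160, 1087, 0.85 and 2881 CPM. Its log2 ratio was 4.35 in GC and 7.04 in CA1, where 1 cell held 65.7% of the Ascl4 reads. Sp100, a nuclear body protein, gave 1.18 and 4.04, Ifi204, a DNA-binding protein, 2.61 and 3.85, and Trim30a 2.14 and 2.60. Samd9l, an inhibitor of translation, gave 4.17 and 0.85, but 99.8% of its Ascl4 GC reads came from 1 cell and the ratio there was 0.08 without the highest cell of each group.

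**Figure D2:**
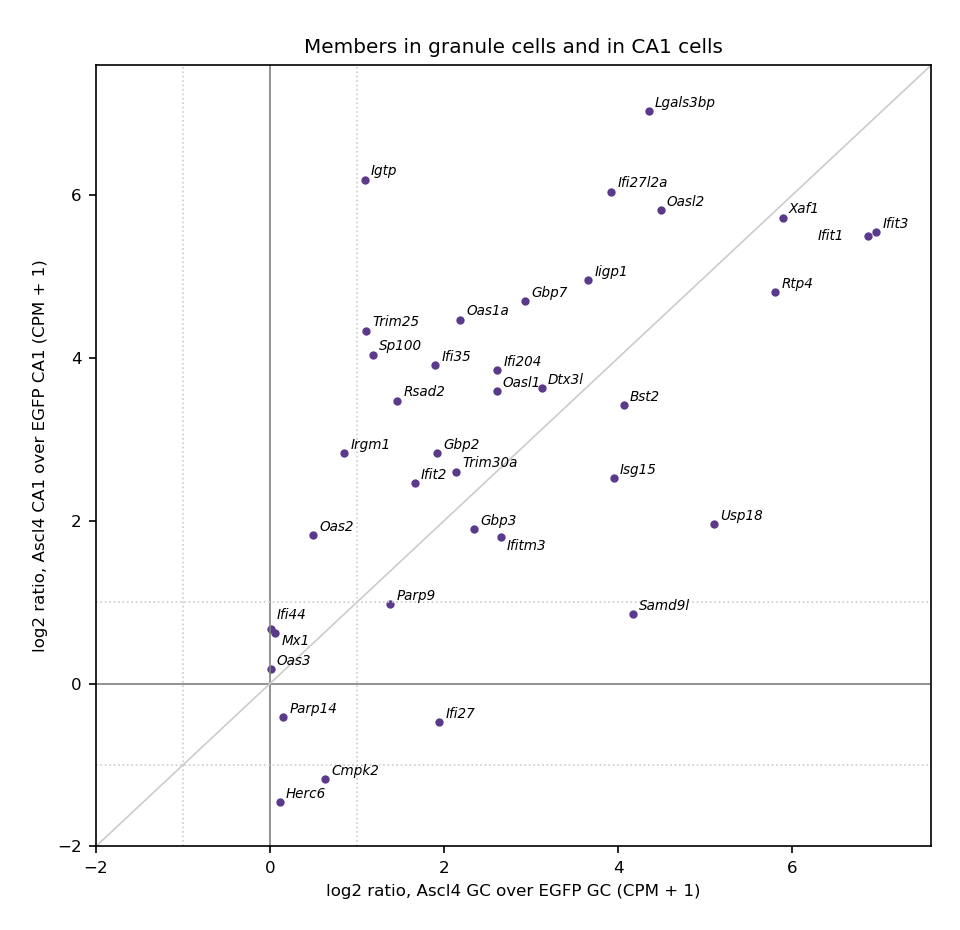
Log2 ratio of Ascl4 over EGFP in granule cells (x) and in CA1 cells (y) for each of the 37 members, from summed reads after adding 1 CPM. Dotted lines mark a factor of 2 and the diagonal marks equal ratios; 26 members lie above a factor of 2 on both axes, and Cmpk2, Ifi27, Herc6 and Parp14 lie right of 0 in GC and under 0 in CA1.

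Most members that were higher in 1 cell type were higher in the other as well. In all, 26 members were at least 2-fold higher in both GC and CA1, 3 in GC alone (Parp9, Ifi27 and Samd9l), 2 in CA1 alone (Oas2 and Irgm1) and 6 in neither. No share over all genes stands beside this overlap, so whether it is particular to the members was not tested. Across the 37 members, which share cells and libraries and are not independent, the GC and CA1 ratios had a Spearman rho of 0.60 and a Pearson r of 0.62. The ratio was the larger in CA1 for 22 members and in GC for 15. Cmpk2, Ifi27, Herc6 and Parp14 had opposite signs in the 2 cell types, which was not tested. By promoter, 12 of 14 members with the ISRE core were higher in GC and 13 of 14 in CA1, and of 13 members without it in the window 10 and 9 were higher.

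Each member was held by a minority of cells, apart from Ifi27 in EGFP CA1. The median over cells was 0 CPM for 36, 30, 36 and 33 of the 37 members. A single cell held more than 50% of the reads for 19, 21, 24 and 19 members. Without the highest cell of each group, in the mean over cells, 22 members were higher in GC and 26 in CA1, of which 20 and 25 were among those counted from the sums. Those no longer at a factor of 2 were Dtx3l, Ifit2, Igtp, Parp9, Rsad2, Samd9l, Sp100, Trim25 and Trim30a in GC and Ifit2, Oasl1 and Usp18 in CA1.

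**Figure D3:**
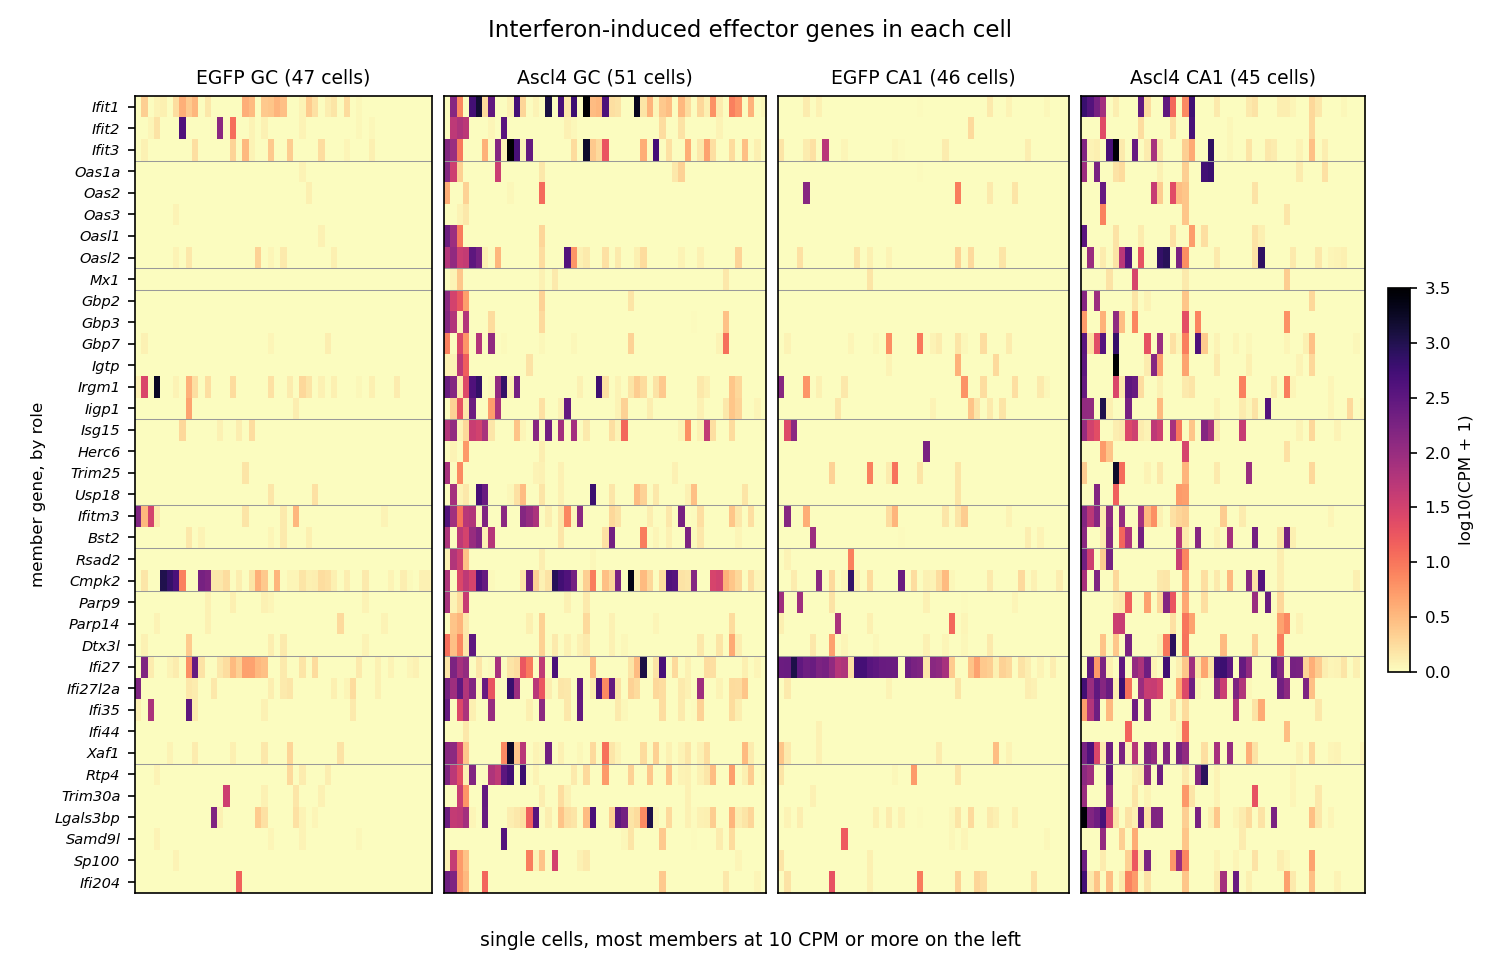
Each member (rows, grouped by role) in each cell (columns) of the 4 groups, as log10 of CPM plus 1. Cells are ordered within a group by their number of members at 10 CPM or more; in the Ascl4 groups a few cells on the left hold many members at once, and the band in EGFP CA1 is Ifi27.

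The members came together in part of the Ascl4 cells. Cells with at least 5 members at 10 CPM numbered 10 of 51 in Ascl4 GC (19.6%, exact 95% interval 9.82 to 33.1) and 17 of 45 in Ascl4 CA1 (37.8%, 23.8 to 53.5). There were 0 of 47 in EGFP GC, which allows a share of up to 6.38%, and 0 of 46 in EGFP CA1, which allows up to 6.52%. At least 3 members were held by 0, 22, 2 and 28 cells, and at least 1 member by 17, 45, 28 and 36 cells. The largest number in 1 cell was 2, 20, 3 and 21. At the other end, 6 Ascl4 GC and 9 Ascl4 CA1 cells held none. The summed members had medians over cells of 4.15, 638, 128.3 and 620 CPM.

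In the first and second runs of title numbers, 3 of 33 and 7 of 18 Ascl4 GC cells and 5 of 17 and 12 of 28 Ascl4 CA1 cells held at least 5 members. No EGFP cell of either run did.

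**Figure D4:**
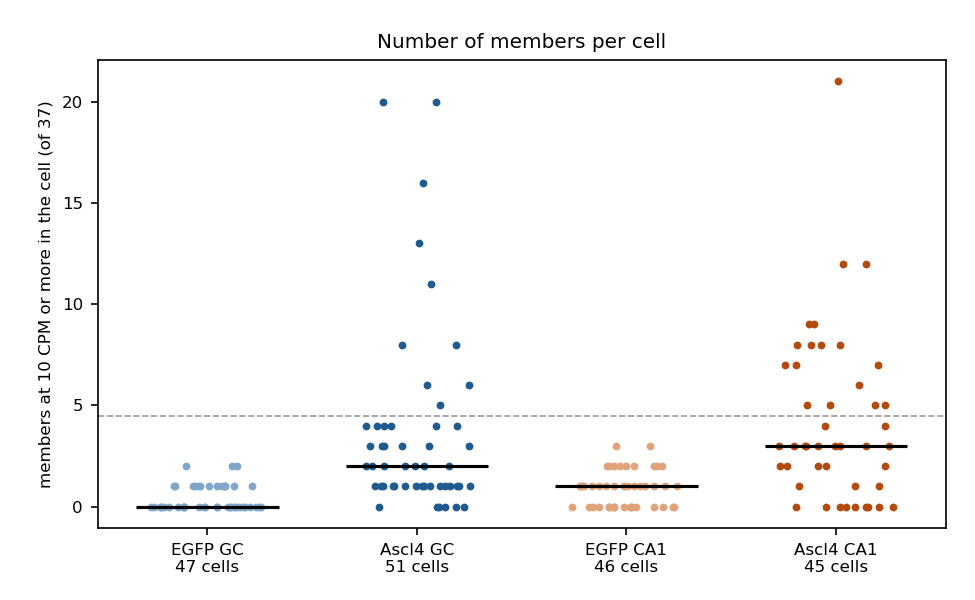
Number of members at 10 CPM or more in each cell (points) of the 4 groups, with the group median as a black bar and 5 members marked by the dashed line. All EGFP cells lie between 0 and 3, whereas Ascl4 cells range from 0 to 20 in GC and from 0 to 21 in CA1.

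The cell with most members in Ascl4 CA1 held 21 of them, Ifit1, Ifit3, Oas1a, Gbp2, Isg15, Rsad2 and Rtp4 included. Its neuron markers (Rbfox3, Snap25, Syt1 and Map2) summed to 519 CPM, the lowest of its group (median 4426). In Ascl4 GC a pair of cells held 20 each. Their granule cell markers (Prox1, C1ql2, Dock10, Stxbp6, Synpr and Calb1) summed to 340 and 486 CPM, where the group median was 2407. Their neuron markers summed to 2414 and 10398 CPM, where the group median was 4292. Ifit1 and Isg15 were together at 10 CPM in 6 of the 11 Ascl4 GC cells with Ifit1 and in 4 of the 8 such Ascl4 CA1 cells. Ifit1 and Ifit3 were together in 4 and 1 of these cells. Over pairs of the 14 members held by most Ascl4 GC cells, the median Spearman rho over cells was 0.16 (−0.30 to 0.43). Over pairs of the 15 such members in Ascl4 CA1 it was 0.18 (−0.26 to 0.56). Some members were also met alone: in 6 of the 18 Ascl4 GC cells with Cmpk2 no other member reached 10 CPM, and the same held for 1 of the 11 cells with Ifit1. In Ascl4 CA1 each of the 8 cells with Ifit1, the 11 with Isg15 and the 13 with Xaf1 held at least 1 other member.

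Over the cells of a group, the number of members at 10 CPM and the level of Ascl4 had a Spearman rho of 0.00 over 51 Ascl4 GC cells and 0.13 over 45 Ascl4 CA1 cells. The median Ascl4 level was 19390 CPM in the 10 Ascl4 GC cells with at least 5 members and 9869 CPM in the rest, and 6716 and 6763 CPM in the corresponding Ascl4 CA1 cells. The order was opposite in the 2 runs of title numbers. In GC the medians were 26087 (3 cells) and 9762 CPM in the first run, and 8251 (7 cells) and 12325 CPM in the second. In CA1 they were 8732 (5 cells) and 5520 CPM in the first run, and 5578 (12 cells) and 8082 CPM in the second. With the number of genes that had a read, the rho was 0.55 in Ascl4 GC and 0.47 in Ascl4 CA1. More than 12000 genes had a read in 4 Ascl4 GC cells and 1 Ascl4 CA1 cell, and 3 and 1 of these were among the cells with at least 5 members. Without them 26 members were higher in GC and 28 in CA1. These relations are descriptions over cells that share a group, and depth and gene number enter both sides.

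Microglial transcripts moved with the members, and their part in the result was not tested. All 16 microglia markers had reads in each group, and 9 of 16 were at least 2-fold higher with Ascl4 in GC and 8 of 16 in CA1. Their summed level ranged over granule cells from 0 to 15990 CPM (median 23.9) with EGFP and from 0.19 to 16596 CPM (median 162.01) with Ascl4, and over CA1 cells from 2.86 to 24144 CPM (median 849) with EGFP and from 1.01 to 60197 CPM (median 1064) with Ascl4. The rho between microglia markers and number of members was 0.46 in Ascl4 GC and 0.51 in Ascl4 CA1. It was 0.27 in EGFP GC and 0.08 in EGFP CA1. The cell with 21 members was also the one with 60197 CPM of microglia markers. Neuron markers, summed over Rbfox3, Snap25, Syt1 and Map2, had a rho with the number of members of 0.09 in Ascl4 GC and −0.33 in Ascl4 CA1.

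High microglia markers without many members were seen in the control cells. Microglia markers summed to at least 1000 CPM in 6 EGFP GC and 21 EGFP CA1 cells, none of which held more than 2 and 3 members. The same level was reached in 17 Ascl4 GC cells, 6 of them with at least 5 members, and in 24 Ascl4 CA1 cells, 12 of them with at least 5. Many members with low microglia markers were rare but present: 2 of 10 Ascl4 GC cells and 1 of 17 Ascl4 CA1 cells with at least 5 members were under 100 CPM of microglia markers, the lowest at 0.40 and 1.01 CPM. Among cells under 100 CPM of microglia markers (31 EGFP and 24 Ascl4 GC, 12 EGFP and 4 Ascl4 CA1 cells), 16 members were higher in GC and 9 in CA1, with medians of 0.21 and 0.00, where 16.6% and 14.97% of all genes were higher. Among cells at or above 100 CPM (16 EGFP and 27 Ascl4 GC, 34 EGFP and 41 Ascl4 CA1 cells), 27 members were higher in GC and 29 in CA1, with medians of 2.48 and 2.97, where 22.4% and 16.7% of all genes were higher.

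**Figure D5:**
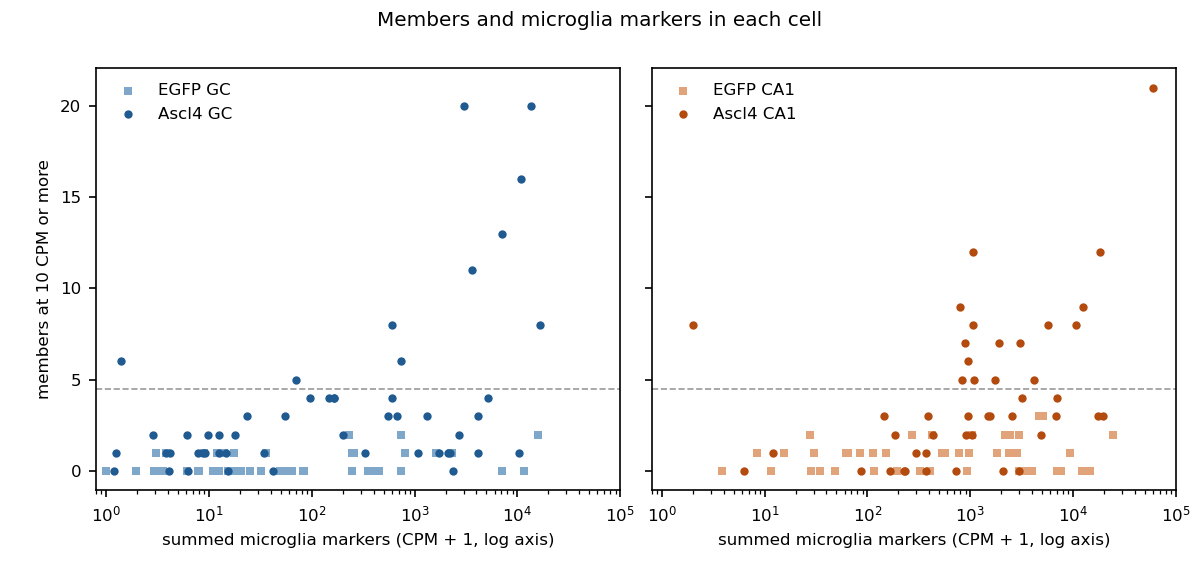
Number of members at 10 CPM or more in each cell (y) against its summed microglia markers (x, CPM plus 1 on a log axis), in GC (left) and CA1 (right), for EGFP cells (squares) and Ascl4 cells (circles). Cells with at least 5 members, above the dashed line, are all Ascl4 cells and lie mostly at high microglia markers, where EGFP cells hold at most 3 members.

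Oligodendrocyte markers moved with the members in part of the granule cells, and their part in the result was not tested. They summed to 564 CPM in EGFP GC and 7487 CPM in Ascl4 GC, where 5 of 7 were at least 2-fold higher and 1 was lower, and to 706 and 821 CPM in CA1, where 3 were higher. The cell medians went the other way, with 174.3, 43.5, 406 and 121.4 CPM. Oligodendrocyte markers reached 10000 CPM in 4 granule cells (all Ascl4) and 3 CA1 cells (1 EGFP, 2 Ascl4). Of these, 3 Ascl4 granule cells and 1 Ascl4 CA1 cell held at least 5 members. The 3 granule cells held 20, 16 and 13 members, and were among the 4 Ascl4 GC cells with the most. Without all cells at that level 26 members were higher in GC and 28 in CA1, with medians of 1.95 and 3.46, and 7 of 47 Ascl4 GC cells (14.9%) held at least 5 members. Igtp, Rsad2 and Sp100 were then no longer 2-fold higher in GC. The rho between oligodendrocyte markers and number of members was 0.38, 0.30, 0.04 and 0.33.

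Astrocyte markers summed to 713, 618, 688 and 290.2 CPM, with 2 of 7 higher and 2 lower in GC and 3 higher and 2 lower in CA1. Their rho with the number of members was 0.43, 0.33, 0.16 and 0.32. T and NK cell markers summed to at most 0.45 CPM in any EGFP GC cell and 3.91 CPM in any Ascl4 GC cell, and Cd3e, Cd2 and Nkg7 had no read in either group. In CA1 they reached 158.1 CPM in EGFP and 325 CPM in Ascl4 cells, and 13 of the 17 Ascl4 CA1 cells with at least 5 members were under 10 CPM. Monocyte and macrophage markers had cell medians of at most 0.37 CPM in all groups and were at 10 CPM or more in 2 EGFP and 8 Ascl4 granule cells, and in 5 EGFP and 10 Ascl4 CA1 cells, of which 5 and 7 were Ascl4 GC and Ascl4 CA1 cells with at least 5 members.

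The control cells of the cell types were also compared with each other. Between EGFP CA1 and EGFP GC, 7 members were higher in CA1 and 5 lower, where 19.8% of 18218 genes were higher and 14.2% lower, and the median log2 ratio was 0.01. Ifi27 was the clearest of these, at 10 CPM in 24 of 46 CA1 cells against 2 of 47 granule cells (log2 ratio 3.90). The other differences came largely from single cells: without the highest cell of each group 2 members, Parp9 and Ifi27, were higher and 3, Ifit2, Cmpk2 and Ifi35, lower.

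The genes around the members in the pathway were read from lists that do not overlap the set. Interferon ligands were close to absent. The 21 interferon genes summed to 0.63, 0.30, 3.85 and 0.38 CPM, and 0 of 21 was at least 2-fold higher with Ascl4 in either cell type. In CA1 1 was lower, Ifna16 (−1.80), named here after its value was seen. Ifnb1, the first type I interferon made by many cells, had no read in EGFP GC, EGFP CA1 and Ascl4 CA1. In Ascl4 GC it was at 10 CPM in 1 cell, which held 13.9 CPM of interferon genes in all and 16 members. That cell had reads on 14695 genes, 63856 CPM of oligodendrocyte markers and 10930 CPM of microglia markers. Its Ascl4 level of 182.9 CPM was the lowest of the group and under that of the highest EGFP GC cell (221.7 CPM). Whether its Ifnb1 reads came from the granule cell was not tested. Ifng had no read in EGFP GC, Ascl4 GC and Ascl4 CA1. Patched cells need not be the cells that make interferon, and ligand in the tissue was not measured.

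Receptors and signalling genes were higher in 11 of 17 cases and lower in 4 in GC, and higher in 8 and lower in 0 in CA1. Irf7, a transcription factor that is itself induced by interferon, was at 10 CPM in 0, 12, 1 and 13 cells, with log2 ratios of 4.88 and 4.45. The feedback inhibitor Socs1 gave 3.07 and 1.82. The receptor kinase Tyk2 went the other way in GC, at −4.10, with −0.89 in CA1.

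Nucleic acid sensors were higher in 7 of 12 cases and lower in 1 in GC, and higher in 9 and lower in 1 in CA1. Ddx58 (RIG-I) and Ifih1 (MDA5), sensors of viral RNA, had log2 ratios of 1.53 and 1.35 in GC and 3.27 and 3.03 in CA1, and each was at 10 CPM in no EGFP cell and in 2 Ascl4 GC cells. Eif2ak2, the RNA-dependent kinase PKR, gave 1.06 and 3.29. Mavs, the adaptor of both RNA sensors, gave −0.29 and −2.49, but was at 10 CPM in only 1, 3, 1 and 0 cells.

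MHC class I and peptide loading genes were higher in 8 of 8 cases in GC and 6 of 8 in CA1. B2m, the light chain of MHC class I, was at 10 CPM in 7 EGFP and 25 Ascl4 granule cells, and in 13 EGFP and 30 Ascl4 CA1 cells, with log2 ratios of 3.78 and 3.30. The heavy chains H2-D1 and H2-K1 gave 5.40 and 2.64 in GC and 4.02 and 6.81 in CA1, and the peptide transporter Tap1 2.06 and 2.40. Over cells, the summed MHC class I list had a rho with the number of members of 0.26 in Ascl4 GC and 0.61 in Ascl4 CA1.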

How the data were processed

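Single patched cells were taken as deposited. The authors deposited read counts per gene for all 228 cells and for the 189 cells past their quality control, and normalized signal values for the latter. Per the submitters' processing notes the tools were STAR and HTSeq and the build GRCm38.p4; of versions, strandedness and quality control rules nothing is given in the sources used here. The deposited signal is the count divided by 1 factor per cell. The series text states more cells past quality control than the 189 in the table, and the table was used. Spike-in rows (92 rows, 4 reads) were left out.

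Summed counts of each group were divided by their total and multiplied by 1000000 (CPM); ratios on the log2 scale used a pseudocount of 1 CPM, a factor of 2 as the mark for a member, and 10 CPM as the mark for a cell. Such ratios understate the fold of low genes. Intervals are exact (Poisson or Clopper-Pearson, 95%) and, like the limit for a count of 0 (3 counts), cover counting error alone: amplified reads carry no molecular identifier here, so reads are not separate molecules. Cells are not replicates, so no p-value was computed. The members and lists, and the markers, were chosen with earlier results of these data known. Members described value by value are those held by most Ascl4 cells in each role group and those that were lower or opposite in direction. The 10 genes whose level over cells was most like that of the members were ranked by the smaller of their Spearman rhos in Ascl4 GC and Ascl4 CA1. That smaller rho was at most 0.43, the larger reached 0.50 (Rpl39 in CA1), and these genes are not described. Near-identical copies (Ifit3, Oas1a, Gbp, Iigp1, Trim30a, Ifi204, Ifitm3, H2-D1 and H2-K1) and overlapping genes (Igtp with Irgm2, Rtp4 with Masp1) are uncertain. RefSeq promoters were matched by symbol for 27 members. Code was tested on simulated data. Alternatives included edgeR 4.0.16 (TMM) and DESeq2 1.42.0 (median of ratios) scaling; Python 3.11.15, pandas 2.3.3, numpy 2.4.6, scipy 1.17.1, matplotlib 3.10.9 and R 4.3.3 were used. A gene of the signalling list is not reported here by name.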

Additional observations from a re-analysis of the deposited data

Results flagged for a closer look

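Members whose ratios went in opposite directions in the 2 cell types were Cmpk2, Ifi27, Herc6 and Parp14. The log2 ratio in GC minus that in CA1 was 1.81 for Cmpk2, 2.42 for Ifi27, 1.57 for Herc6 and 0.56 for Parp14, which was under a factor of 2 in both. The difference between the cell types was not tested, since each group is 1 sample. Herc6 rests on 1 EGFP CA1 cell, and the CA1 ratio of Cmpk2 was −0.01 without the highest cell of each group, whereas that of Ifi27 was −0.36.

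Among the cells that the authors' quality control left out, 1 Ascl4 CA1 cell held 11 members at 10 CPM, whereas no EGFP cell left out held more than 2. This cell had 71042 reads, so that a single read exceeds 10 CPM there, and 1675 CPM of microglia markers. An EGFP GC cell among those left out held 16206 CPM of Ifi27, and with all cells, those left out included, the GC ratio of Ifi27 was −1.51 in place of 1.95.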

How the results depend on the processing

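The percent of EGFP cells with at least 5 members was 0 under every alternative that keeps that number, in GC and CA1. For Ascl4 cells the percent was 43.1 in GC and 62.2 in CA1 with at least 3 members, 9.80 and 6.67 with at least 10, and in GC 9.09 in the first and 38.9 in the second run of title numbers. Leaving out each gene's highest cell in every group, the median ratio was 1.59 in GC and 2.82 in CA1, and 2 members were higher in EGFP CA1 than in EGFP GC. With a pseudocount of 0.1 CPM the medians were 4.24 and 5.47 and 13 members were higher in EGFP CA1. With a pseudocount of 10 CPM 15 members were higher in GC, the medians were 0.74 and 1.13, and 1 member was higher in EGFP CA1. The authors' normalized values gave a CA1 median of 2.64. The first run of title numbers gave 18 members in GC and medians of 0.67 and 1.03. Only genes with a read in at least 25% of cells of 1 group and at least 10 CPM gave 14 of 16 members in GC, 16 of 18 in CA1, medians of 4.01 and 4.37, and 1 of 3 in EGFP CA1. Without a pseudocount, and with members that had no read set to the floor of 3 reads, the medians were 7.64 and 7.09. TMM and median-of-ratios scaling left 29 and 28 members.

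Cells under 10 CPM of microglia markers (13 EGFP and 13 Ascl4 GC, 2 and 2 CA1 cells) gave 10 members in GC and 10 in CA1, medians of 0.015 and 0.00, 7.69% of Ascl4 GC cells with at least 5 members, and 1 member higher in EGFP CA1. Of all genes with a read in these cells, 23.3% were higher with Ascl4 in GC and 29.2% in CA1. The counts of members are out of all members, with or without a read in these cells. They therefore do not have the same base as these shares, and no direction is read from them. Cells under 100 CPM gave 16 and 9 members, medians of 0.21 and 0.00, 8.33% of Ascl4 GC cells, and 4 members in EGFP CA1. That level, cells at or above it, and leaving out cells with the other type's factor or with at least 10000 CPM of oligodendrocyte markers were chosen after seeing the data. The cause was not tested.

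Of the members at least 2-fold higher or lower, some changed sign. In GC these were Ifit2 in the mean over cells (−0.22), the normalized values (−0.48), the first run (−0.60), cells under 10 CPM (−0.0030) or from 100 CPM of microglia markers (−0.42) and thinned cells (−0.16). Ifi27 was −1.51 in GC with all cells. In the first run Oasl1 was −0.020, Parp9 −0.041, Samd9l −0.011 and Ifi204 −0.24 in GC, and Herc6 was 0.059 and Cmpk2 0.10 in CA1. Herc6 was 0.20 in CA1 without the highest cell. Under 10 CPM of microglia markers, GC ratios were −0.024 for Oasl1, −0.00011 for Isg15, −0.071 for Parp9, −0.026 for Dtx3l, −0.0090 for Trim30a and −0.80 for Ifi204, and Cmpk2 was 0.18 in CA1. Under 100 CPM they were −0.010 for Oasl1, −0.00091 for Trim25, −0.040 for Parp9, −0.013 for Trim30a and −0.38 for Ifi204 in GC. In CA1 they were −0.077 for Ifit3, −0.33 for Oas2, −0.10 for Igtp, −1.05 for Trim25, −0.020 for Usp18, −0.42 for Ifitm3 and −0.039 for Rtp4. From 100 CPM Samd9l was −0.0081 in GC.

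Depth limits the shares: 10 CPM is at least 10 reads in every cell kept. No paired analysis was possible because the result comes from no test and the groups share no numbers.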
